A study of Mus musculus with 6 samples.

Results

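The genes described here encode the subunits of the proteasome and the factors that assemble, cap or inhibit it, in mouse 410.4 cells kept with or without neutrophil extracellular traps (NETs). They were taken as every row of the deposited count table whose symbol starts with Psm, a letter from a to g and a digit, leaving out Psmb8, Psmb9 and names containing -ps. This gave 49 genes of 55809 symbols in the table. 410.4 is a mouse mammary carcinoma cell line. The cells were held for 2 days in DMEM with 0.5% serum. The medium of 3 libraries was one in which NETs had been isolated, and that of the other 3 libraries was control DMEM, called Veh in the sample titles. Both groups thus share the single cell line, the low serum and the time. The source of the neutrophils and the amount of NET material are not stated in the labels, and other differences between the media cannot be told apart from the NETs themselves.

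The proteasome is the main protease for ubiquitin-tagged proteins in the cytosol and nucleus. Its 20S core is a barrel of alpha rings, which gate the entry, and beta rings, which hold the catalytic sites. The 19S regulatory particle caps the barrel: its base of ATPases and scaffold subunits unfolds the substrate, and its lid removes the ubiquitin chain. Other caps, such as the PA28 ring made from Psme1 and Psme2, open the core without ubiquitin, and interferons can exchange the constitutive catalytic subunits for immunoproteasome ones. In mammals the transcription factor NRF1, the product of Nfe2l1, raises most subunit genes together when proteasome activity is short.

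The libraries held 31119105 to 64431811 counts each, and the proteasome genes took 0.551% to 0.589% of them. Each NET library was correlated with the other NET libraries at r = 0.991 to 0.994. This is a correlation over genes, and genes are no independent replicates. The epithelial markers Epcam, Cdh1, Krt8, Krt18, Krt19 and Cldn4 were present in every library. Their summed level was 3841 to 4070 CPM with NETs and 3589 to 3840 CPM in control medium (CPM, the count over the TMM-scaled library size, times 1000000). In the test used below Cldn4 rose, at 789 CPM with NETs and 378 CPM in control medium, and so did Krt8, at 700 and 587 CPM. Krt18 fell, at 984 CPM with NETs and 1190 CPM in control medium, and so did Cdh1, at 570 and 629 CPM. Epcam and Krt19 did not pass. Of 12 neutrophil markers 5 had no count in any library, among them Elane, Camp and Ngp, and 11 stayed under 1 CPM in every library. Their sum was 3.06 to 3.41 CPM with NETs and 1.76 to 2.12 CPM in control medium, most of it from S100a8. S100a8 rose, at 2.63 CPM with NETs and 1.38 CPM in control medium (adjusted p = 0.00136), and Cxcr2 did not pass (adjusted p = 0.0575). Of 6 macrophage markers Adgre1 had no count and Lyz2 at most 4 counts, and the sum was 112 to 119 CPM with NETs, against 56.3 to 61.9 CPM in control medium. Csf1r rose and made up 80.2 ± 5.30 CPM of it with NETs and 24.1 ± 1.43 CPM in control medium (SD, n = 3 each, adjusted p = 1.65e-12). Its exons overlap those of Hmgxb3 on the other strand. Mrc1 fell, at 0.405 ± 0.0581 CPM with NETs and 1.052 ± 0.0262 CPM in control medium (adjusted p = 0.00169), and Cd68 and Cd14 did not pass. Of 6 fibroblast markers Dcn, Lum and Thy1 had no count, and the sum was 59.2 to 67.9 CPM with NETs and 42.8 to 48.7 CPM in control medium. Pdgfra held most of it and did not pass (49.2 ± 2.13 CPM with NETs and 45.4 ± 3.37 CPM in control medium), while Col1a1 rose, at 13.4 ± 2.48 CPM with NETs and 1.18 ± 0.129 CPM in control medium (adjusted p = 2.34e-11). The part of these markers in the results below was not tested.

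Of the 49 genes 47 passed the filter on low counts. Psma8, an alpha subunit known from testis, and Psmb11, the beta subunit of the thymus, had no count in any library, and a count of 0 allows up to 3 reads, or 6 counts where both mates were counted. 46 genes had a mean above 1 CPM in both groups. The exception was Psme2b, a gene closely related to Psme2, which had 29, 26 and 16 counts with NETs and 8, 24 and 10 counts in control medium. That is 0.607 ± 0.279 CPM with NETs and 0.278 ± 0.221 CPM in control medium (SD, n = 3 each), with overlap, and it did not pass the test (log2 fold change 1.15 ± 0.536, SE, adjusted p = 0.103). Reads of Psme2 and Psme2b may be shared, and both values are uncertain for that reason.

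In NET-conditioned medium part of the 19S regulatory particle and Psme1 and Psme2, the genes of the PA28 alpha and beta subunits, rose, by 1.09-fold to 1.42-fold, while nearly all genes of the 20S core did not pass the test. The difference between the 19S and the core genes was not tested, and a gene that did not pass is not shown to be unchanged. Across the proteasome genes 16 of 47 tested rose and 0 fell (edgeR's quasi-likelihood test, Benjamini-Hochberg adjusted p under 0.05 over 13956 genes). That is 34.0% higher, where 20.2% of all tested genes were called higher and 18.7% lower (38.9% in either direction). At an unadjusted p under 0.05 there were 19 genes with a fitted change above 0 and 2 below 0, without a share over all genes to set beside them. DESeq2 called 17 higher and 0 lower, where it called 20.3% of all tested genes higher and 18.1% lower. The median log2 fold change was 0.10 over the proteasome genes and -0.00 over all tested genes. Scaled by library size alone 9 rose and 3 fell, where 15.1% of all tested genes were called higher and 27.0% lower. With upper-quartile factors 13 rose and 2 fell, where the shares of all tested genes were 18.3% and 21.4%. Without control replicate 1 the count was 10 higher and 0 lower, against 16.3% and 14.4% of all tested genes. All 16 changes were under 1.5-fold, and 34 of the 47 genes had a log2 fold change between -0.2 and 0.2. Levels are of RNA from whole cultures, in which fewer cells of a type and less RNA per cell cannot be told apart. Nothing in the labels says that the replicates were separate cultures, so p-values measure the spread between these libraries.

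**Figure D1:**
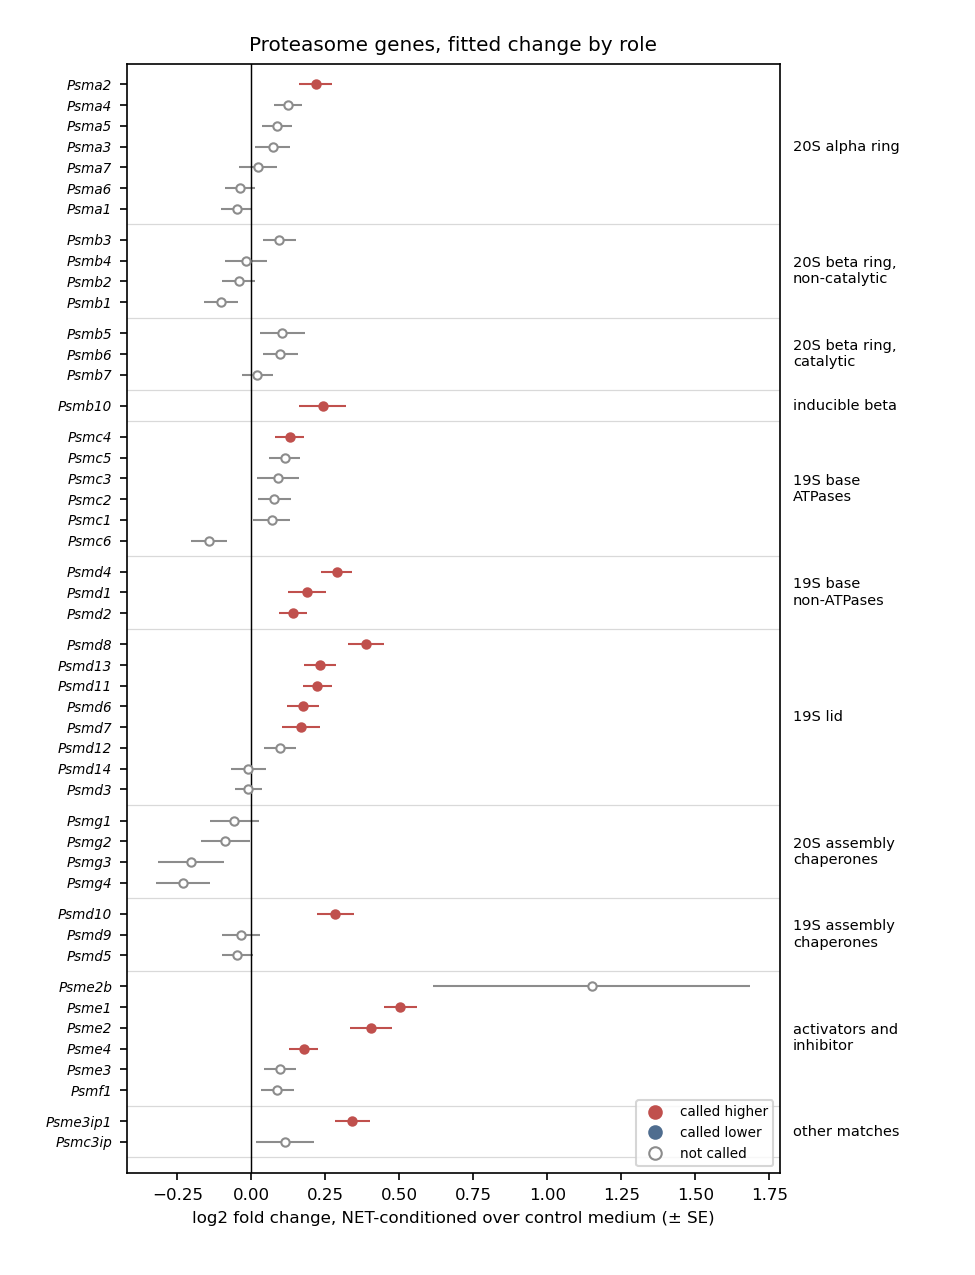
Log2 fold change of each tested proteasome gene, NET-conditioned over control medium, with its standard error (horizontal bar), grouped by role (labels at the right); filled points passed the test. The 19S base non-ATPases and most of the lid lie to the right of 0, at up to 0.39 for Psmd8, while the 20S core genes lie between -0.10 and 0.22.

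Psme1 showed the smallest p-value of the proteasome genes, and the promoters of 5 genes that carry the contrasts below are shown, so that genes that rose stand beside genes that did not pass. They are RefSeq windows on GRCm38.p6 from 250 bases before to 50 bases after the annotated start, printed along the gene's strand, and 41 of the 49 genes had such a window. Psme1 encodes PA28 alpha (chr14:55578244-55578543, plus strand), Psmd4 the ubiquitin receptor of the base (chr3:95042565-95042864, minus strand) and Psmd8 a lid subunit (chr7:29180624-29180923, minus strand), and all of these rose. Psmb5, a catalytic core subunit (chr14:54617946-54618245, minus strand), and Psmc6, a base ATPase (chr14:45329574-45329873, plus strand), did not pass the test. Capitals mark matches, on either strand, to TGACNNNGC (N is any base, the core of the antioxidant response element that NRF1 and NRF2 bind), GAAA repeated after 2 bases of any kind (a form of the interferon-stimulated response element) and CCGGAAG (an ETS site).
Psme1: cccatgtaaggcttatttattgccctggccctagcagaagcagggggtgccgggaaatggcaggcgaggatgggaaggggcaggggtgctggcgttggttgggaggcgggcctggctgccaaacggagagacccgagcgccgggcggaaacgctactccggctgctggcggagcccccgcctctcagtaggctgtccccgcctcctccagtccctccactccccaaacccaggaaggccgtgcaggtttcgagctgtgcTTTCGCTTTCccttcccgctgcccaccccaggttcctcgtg
Psmd4: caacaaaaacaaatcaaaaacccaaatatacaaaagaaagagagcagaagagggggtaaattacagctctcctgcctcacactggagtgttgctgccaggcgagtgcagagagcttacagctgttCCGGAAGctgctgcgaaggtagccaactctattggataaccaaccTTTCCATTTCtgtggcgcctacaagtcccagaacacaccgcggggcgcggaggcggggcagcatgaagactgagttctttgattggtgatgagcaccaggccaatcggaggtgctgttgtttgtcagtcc
Psmd8: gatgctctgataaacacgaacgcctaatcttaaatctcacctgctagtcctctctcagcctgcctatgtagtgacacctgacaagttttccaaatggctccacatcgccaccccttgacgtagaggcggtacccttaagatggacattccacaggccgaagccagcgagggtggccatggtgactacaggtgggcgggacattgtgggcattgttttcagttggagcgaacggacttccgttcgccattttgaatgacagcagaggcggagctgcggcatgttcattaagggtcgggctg
Psmb5: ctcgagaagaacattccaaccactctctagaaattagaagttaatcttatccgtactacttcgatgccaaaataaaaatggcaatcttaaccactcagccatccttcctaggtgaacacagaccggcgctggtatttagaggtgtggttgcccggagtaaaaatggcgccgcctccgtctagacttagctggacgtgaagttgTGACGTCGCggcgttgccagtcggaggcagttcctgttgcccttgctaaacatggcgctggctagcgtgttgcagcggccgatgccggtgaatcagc
Psmc6: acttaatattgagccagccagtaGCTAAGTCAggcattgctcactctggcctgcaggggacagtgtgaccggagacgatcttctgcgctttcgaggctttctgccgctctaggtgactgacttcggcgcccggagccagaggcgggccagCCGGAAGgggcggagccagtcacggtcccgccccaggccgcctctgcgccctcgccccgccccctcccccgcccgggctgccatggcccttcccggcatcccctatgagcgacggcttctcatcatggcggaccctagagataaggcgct

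The Psme1 window held an interferon-type match on the opposite strand, with its first base at 9 counted from 0 at the start. Psmd4 held a match of the same kind, also on the opposite strand, at -80 and an ETS match at -125. Psmb5 held an antioxidant-type match at -47, and Psmc6 one on the opposite strand at -227 beside an ETS match at -100. The Psmd8 window held none of these letters, and no matches overlapped one another in the windows shown. Over all windows the antioxidant-type letters stood in 6 of 41 proteasome genes, 14.6%. They stood in 14.0% of all 27025 genes with a window and in 16.9% of the tested ones. Of the proteasome genes they stood in 1 of 15 that rose and in 5 of 25 that did not pass the test. The interferon-type letters stood in 5 of 41 (12.2%, against 3.99% of all genes and 3.68% of the tested genes), 2 of them among the genes that rose and 3 among those that did not pass. The ETS letters stood in 16 of 41 (39.0%, against 9.93% of all genes and 20.4% of the 10041 tested genes with a window), 7 among the genes that rose and 9 among those that did not pass. These are counts of letters in a fixed window and were not tested.

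The genes of the PA28 alpha and beta subunits, Psme1 and Psme2, rose. Psme1 stood at 110.5, 118 and 109 CPM in NET replicates 1 to 3, against 74.2, 82.8 and 81.1 CPM in control replicates 1 to 3. The lowest NET library lay well above the highest control library, and the change was 1.42-fold (log2 fold change 0.50 ± 0.0549, SE, adjusted p = 1.35e-06). Psme2, the gene of the PA28 beta partner in the same ring, had 79.5, 68.9 and 68.1 CPM with NETs, against 53.4, 59.8 and 50.7 CPM in control medium. Its groups did not overlap either, and it rose 1.32-fold (0.40 ± 0.0711, adjusted p = 0.000277).

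Psme4 rose by less, and Psme3 and Psmf1 did not pass. Psme4, which encodes the large activator PA200, had 251, 229 and 242 CPM with NETs and 212, 210.0 and 218 CPM in control medium, a rise of 1.13-fold (adjusted p = 0.00840) without overlap. Its call was lost with library size alone and without NET replicate 1. Psme3, the gene of the nuclear PA28 gamma, averaged 175 ± 9.52 CPM with NETs and 163 ± 9.13 CPM in control medium (adjusted p = 0.183). Psmf1, which encodes the inhibitor PI31, had 53.7, 52.9 and 50.05 CPM with NETs and 50.5, 46.5 and 50.2 CPM in control medium (adjusted p = 0.245). The libraries of the groups overlapped for both of these.

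Psme3ip1 and Psmc3ip match the name pattern but are no subunits. The human product of Psme3ip1 binds PA28 gamma. Psme3ip1 rose 1.27-fold, at 72.6, 80.8 and 76.5 CPM with NETs against 59.2, 57.3 and 64.8 CPM in control medium (adjusted p = 0.000228). Its exons overlap those of Rspry1 on the other strand in the table, and whether reads were counted by strand is not known here, so its value is uncertain. Psmc3ip, a meiotic recombination factor whose exons overlap Mlx on the other strand, had 13.3, 14.8 and 14.8 CPM with NETs and 12.7, 11.8 and 15.1 CPM in control medium, which overlapped (adjusted p = 0.389). Without both of these, 15 of 45 tested genes rose and 0 fell, 33.3% higher, where 20.2% of all tested genes were called higher and 18.7% lower.

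Of the 17 genes of the 19S particle within the name pattern 9 rose and 0 fell, and the median log2 fold change was 0.13. That is 52.9% higher, where 20.2% of all tested genes were called higher and 18.7% lower. Of the non-ATPase subunits 8 of 11 rose, 72.7%, and of the ATPase genes 1 of 6, 16.7%, near the share of all tested genes. The difference between these counts was not tested. Adrm1 and Sem1, 19S genes outside the name pattern, are not in these counts. Neither passed (log2 fold changes 0.10 and -0.0034, adjusted p = 0.176 and 0.972). All 3 non-ATPase genes of the base within the name pattern rose. Psmd4, a receptor for ubiquitin chains, had 137, 148 and 139 CPM with NETs, against 109, 118 and 120.3 CPM in control medium. Every NET library lay above every control library, and the rise was 1.22-fold (0.29 ± 0.0522, adjusted p = 0.000303). The scaffold genes Psmd2 and Psmd1 rose 1.10-fold and 1.14-fold (adjusted p = 0.0260 and 0.0275). Psmd2 had 595, 621 and 588 CPM with NETs and 537, 537 and 562 CPM in control medium. For Psmd1 control replicate 3, at 217 CPM, lay above NET replicate 1, at 209 CPM. Both calls were lost with library size alone and without NET replicate 2, NET replicate 3, control replicate 1 or control replicate 2, and that of Psmd2 also with upper-quartile factors and with no low-count filter.

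Of the 8 lid genes within the name pattern 5 rose, 62.5%, where 20.2% of all tested genes were called higher. Psmd8, which encodes a lid subunit that joins late in assembly, had 155, 181 and 171 CPM with NETs, against 126, 123 and 138 CPM in control medium. It changed most of all 19S genes, 1.31-fold (0.39 ± 0.0606, adjusted p = 8.18e-05), without overlap between the groups. Psmd11, a scaffold of the lid whose level is known to be limiting for 26S assembly in human stem cells, had 195, 208 and 195 CPM with NETs and 165, 169.7 and 178 CPM in control medium (1.17-fold, adjusted p = 0.00169). Psmd13 rose 1.17-fold, at 83.9 ± 3.77 CPM with NETs against 71.3 ± 3.63 CPM in control medium (adjusted p = 0.00313). Psmd11 and Psmd13 did not overlap between groups. Exons of Psmd13 overlap those of Sirt3 on the other strand.

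Psmd6 and Psmd7 rose by less. Psmd6 averaged 67.5 ± 2.00 CPM with NETs and 59.8 ± 2.09 CPM in control medium (1.13-fold, adjusted p = 0.0152). Psmd7, the partner of the lid's deubiquitinase, averaged 179.5 ± 11.2 CPM with NETs and 159.7 ± 14.2 CPM in control medium (1.12-fold, adjusted p = 0.0456), and its libraries overlapped. The call of Psmd6 was lost with library size alone, without NET replicate 1 and without control replicate 1. That of Psmd7 was lost in 8 of 16 alternatives. The remaining lid genes did not pass. Psmd14, the deubiquitinase itself, had 125, 128 and 132 CPM with NETs and 125, 121 and 142 CPM in control medium (adjusted p = 0.915). Psmd3 had 198, 202 and 193 CPM with NETs and 195, 201 and 201 CPM in control medium (adjusted p = 0.875), so that its means differed by less than the spread within either group. Psmd12 averaged 158 ± 8.16 CPM with NETs and 147 ± 7.61 CPM in control medium (adjusted p = 0.166).

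Among the ATPases, the motor of the base, Psmc4 had 109.8, 102 and 107 CPM with NETs, against 95.2, 95.9 and 100.5 CPM in control medium. The groups did not overlap and the gene passed narrowly (1.09-fold, adjusted p = 0.0493), with the call lost in 8 of 16 alternatives. Psmc6 was counted lower, with 184, 211 and 209 CPM with NETs and 216, 213 and 239 CPM in control medium. Its groups did not overlap, but it did not pass (log2 fold change -0.14 ± 0.0600, adjusted p = 0.0704). It was called lower in 5 of 16 alternatives, among them library size alone, upper-quartile factors, no low-count filter and without NET replicate 2. Psmc1, Psmc2, Psmc3 and Psmc5 had log2 fold changes of 0.07, 0.08, 0.09 and 0.11, and none passed (adjusted p = 0.105 to 0.423). Psmc5 had 158, 176 and 157 CPM with NETs and 146, 151 and 156 CPM in control medium, without overlap but by a narrow margin. In all 4 of these NET replicate 2 was the highest of the NET libraries, for Psmc3, whose exons overlap Slc39a13 on the other strand, with 190.4 CPM against 158 and 172 CPM in NET replicates 1 and 3.

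**Figure D2:**
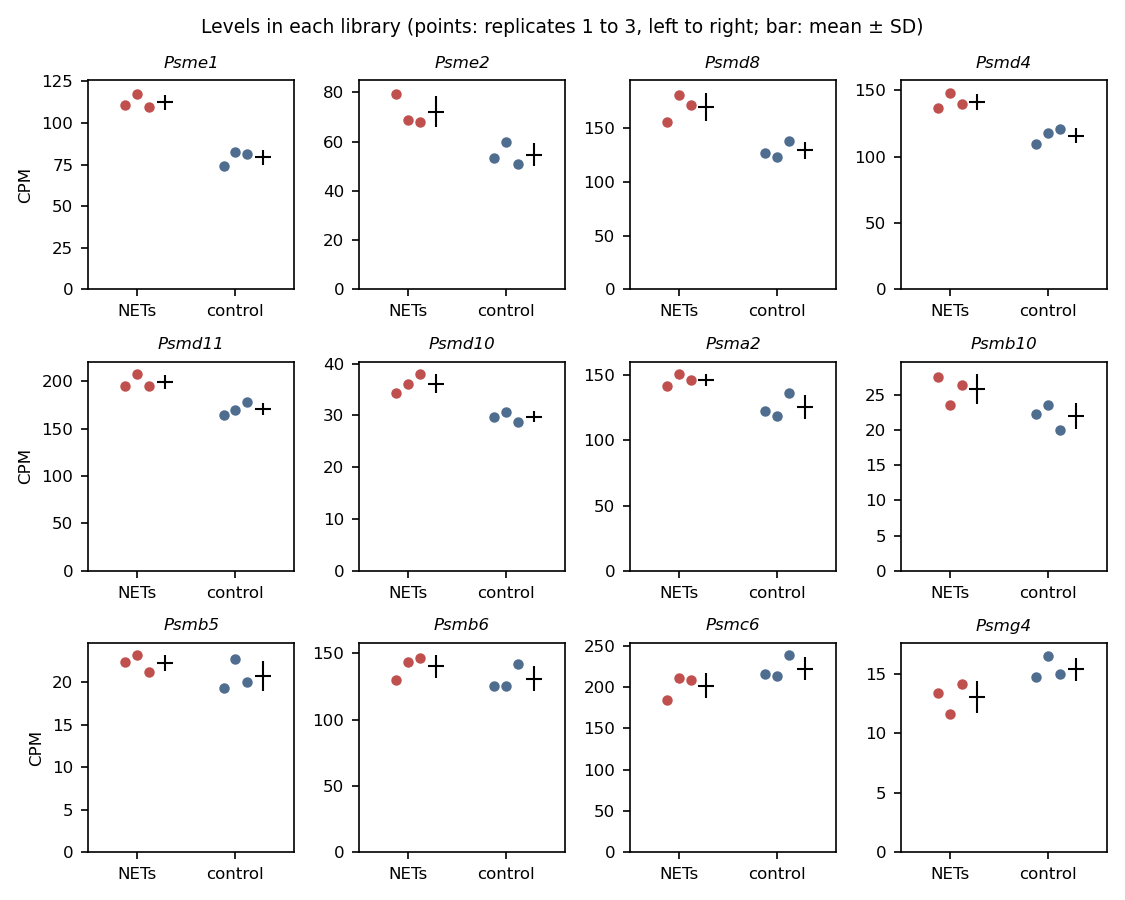
CPM of 12 proteasome genes in each library, with NETs at the left and control medium at the right of each panel; points are replicates and the bar is the mean ± SD (n = 3). Psme1, Psme2, Psmd8, Psmd4, Psmd11, Psmd10 and Psma2 do not overlap between the groups, while Psmb10, Psmb5 and Psmb6 do, and Psmc6 and Psmg4 lie lower with NETs without passing the test.

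In the 20S core 1 of 14 tested genes rose and 0 fell, and the median log2 fold change was 0.05. That is 7.14% higher, where 20.2% of all tested genes were called higher and 18.7% lower, and the number of genes is small. Of the 14 genes 9 had a fitted change above 0, and of the 17 19S genes 14 had, where 6885 of all 13956 tested genes had. Psma2, an alpha ring gene, had 141, 151 and 146 CPM with NETs, against 123, 118 and 136 CPM in control medium. It rose 1.16-fold (0.22 ± 0.0551, adjusted p = 0.00474) without overlap. Psma4 averaged 159.5 ± 4.13 CPM with NETs and 146 ± 6.03 CPM in control medium and missed the threshold narrowly (adjusted p = 0.0536), although its groups did not overlap. It was called higher in 5 of 16 alternatives, DESeq2 among them. Psma1, with the lowest log2 fold change of the ring, had 121, 116 and 132 CPM with NETs and 126, 126 and 131 CPM in control medium (-0.05, adjusted p = 0.495). Psma5 had 69.1, 68.4 and 66.5 CPM with NETs and 64.3, 62.8 and 64.8 CPM in control medium. Its groups did not overlap, but the step was small and did not pass (log2 fold change 0.09 ± 0.0504, adjusted p = 0.187). Psma3, Psma6 and Psma7 had log2 fold changes of 0.07, -0.04 and 0.02, overlapped between the groups and did not pass either. Psma7 averaged 259 ± 24.0 CPM with NETs and 255 ± 14.8 CPM in control medium.

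The 3 constitutive catalytic subunits did not pass. Psmb5, which carries the chymotrypsin-like site, had 22.4, 23.2 and 21.3 CPM with NETs and 19.4, 22.7 and 20.1 CPM in control medium (log2 fold change 0.10 ± 0.0768, adjusted p = 0.312). Psmb6, of the caspase-like site, had 130.0, 144 and 146 CPM with NETs and 126, 125 and 142 CPM in control medium (0.10 ± 0.0597, adjusted p = 0.216). Psmb7, of the trypsin-like site, had 127, 141 and 132 CPM with NETs and 129, 128 and 138 CPM in control medium (0.02 ± 0.0524, adjusted p = 0.803). In each of them the groups overlapped, and Psmb6 was called higher without control replicate 3. Exons of Psmb7 overlap those of Nek6 on the other strand. Of the non-catalytic beta genes Psmb3 had the highest log2 fold change, 0.09 (adjusted p = 0.197), and Psmb1 the lowest, -0.10, with 169, 148 and 169.7 CPM with NETs and 166, 183 and 174 CPM in control medium (adjusted p = 0.184). Psmb3 had 75.3, 72.7 and 70.1 CPM with NETs and 66.1, 72.1 and 66.2 CPM in control medium, where control replicate 2 reached into the range of the NET libraries. Psmb2 and Psmb4 lay at -0.04 and -0.02. In Psmb4 NET replicate 1 stood apart, at 112 CPM against 92.9 and 92.5 CPM in NET replicates 2 and 3, while the control libraries held 99.2, 107 and 95.4 CPM.

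Psmb10, the interferon-inducible counterpart of Psmb7, rose 1.18-fold, at 27.6, 23.5 and 26.4 CPM with NETs against 22.2, 23.6 and 19.97 CPM in control medium (0.24 ± 0.0796, adjusted p = 0.0241). NET replicate 2 lay just below control replicate 2, and the call was lost with library size alone and without NET replicate 1, NET replicate 3, control replicate 1 or control replicate 3. Psmb8, the counterpart of Psmb5, stood at 18.5 ± 0.993 CPM with NETs, against 12.3 ± 0.710 CPM in control medium, a rise of 0.59 on the log2 scale (adjusted p = 2.13e-05). Psmb9, the counterpart of Psmb6, lay at 2.32 ± 0.397 CPM with NETs and 1.58 ± 0.175 CPM in control medium (adjusted p = 0.0447), with the call lost in 10 of 16 alternatives, and shares exon sequence with Tap1 on the other strand.

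Each inducible subunit was then set against the constitutive one that it replaces, per length of exon (RPKM, CPM per 1000 bases). The length covers all annotated exons, so the percents depend on it, while the differences between the groups do not. It is 3381 bases for Psmb8 and 899 for Psmb5, 1705 for Psmb10 and 3421 for Psmb7, and 3660 for Psmb9 and 1872 for Psmb6. As counts, Psmb8 had 876 and Psmb5 1002 in NET replicate 1. Psmb8 stood at 23.2%, 21.2% and 22.0% of Psmb5 with NETs, against 16.5%, 15.4% and 15.7% in control medium, without overlap. The log2 ratio was 0.48 higher with NETs (exact two-sided permutation test, p = 0.1, the smallest that 3 against 3 can give). Psmb10 stood at 43.6%, 33.4% and 40.1% of Psmb7 with NETs and 34.6%, 37.0% and 29.1% in control medium, which overlapped (exact p = 0.3). Psmb9 stood at 0.983%, 0.923% and 0.650% of Psmb6 with NETs and 0.686%, 0.688% and 0.498% in control medium, which overlapped as well (exact p = 0.3). The Psmb10 difference, 0.22 on the log2 scale, was 0.13 without NET replicate 1, 0.32 without NET replicate 2 and 0.12 without control replicate 3. The Psmb9 difference, 0.44, was 0.29 without control replicate 3. Adjusted over the 3 ratios each p was 0.3, and this design cannot reach 0.05.

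**Figure D3:**
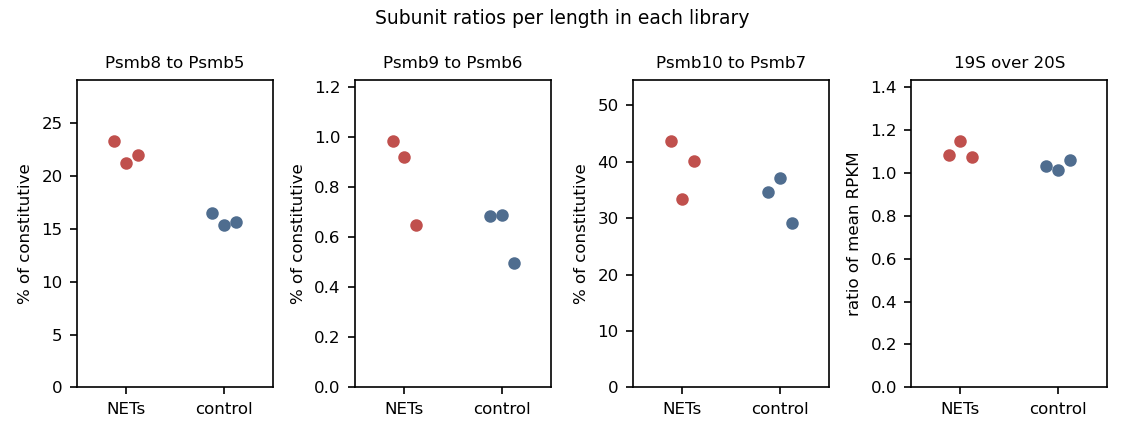
Level of each inducible catalytic subunit as a percent of its constitutive counterpart, per length of exon (first 3 panels), and the mean RPKM of 17 19S genes over that of 14 20S genes (last panel), in each library; points are replicates 1 to 3 from left to right, with NETs left of control medium. Psmb8 to Psmb5 and the 19S to 20S ratio do not overlap between the groups. The percents depend on the annotated exon lengths.

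Per length the core and 19S genes ranged widely. The 14 core genes ran from 24.8 to 116 RPKM with NETs, with a median of 46.3, and from 23.0 to 119 RPKM in control medium, with a median of 45.8. The lowest was Psmb5 and the highest Psma6 in both groups. The 17 19S genes ran from 24.1 to 149 RPKM with NETs, with a median of 50.3, and from 21.1 to 135 RPKM in control medium, with a median of 44.9. Psmd2 was the highest in both. The length used covers all annotated exons of a gene, and a row named Psmb5-ps stands in the table, so the level of Psmb5 is uncertain where reads map to both. The ratio of the mean 19S level to the mean core level was 1.08, 1.15 and 1.07 with NETs, against 1.03, 1.01 and 1.06 in control medium. The NET libraries were all above the control libraries, by little, and this ratio was not tested. For the non-ATPase 19S genes alone it was 0.966, 1.01 and 0.961 with NETs, against 0.893, 0.875 and 0.914 in control medium.

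Of 7 chaperone genes 1 rose and 0 fell, 14.3% higher, near the 20.2% of all tested genes. That gene was Psmd10, which encodes gankyrin, a chaperone of the base also studied as an oncoprotein. It had 34.4, 36.0 and 38.01 CPM with NETs, against 29.8, 30.7 and 28.6 CPM in control medium, a rise of 1.22-fold (0.28 ± 0.0626, adjusted p = 0.00166) without overlap. The other chaperones of the base, Psmd5 and Psmd9, had log2 fold changes of -0.05 and -0.03. Psmd5 had 68.2, 69.1 and 69.3 CPM with NETs and 68.2, 73.6 and 71.8 CPM in control medium, with overlap (adjusted p = 0.506). Psmd9 averaged 37.4 ± 2.78 CPM with NETs and 38.2 ± 1.39 CPM in control medium (adjusted p = 0.712).

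The 4 chaperones of the 20S core, Psmg1 to Psmg4, had fitted changes below 0, and none passed. That of Psmg1 lay above 0 without NET replicate 1. Psmg4 had 13.4, 11.6 and 14.1 CPM with NETs and 14.7, 16.5 and 14.9 CPM in control medium, without overlap (log2 fold change -0.23 ± 0.0911, adjusted p = 0.0564). It was called lower with library size alone, upper-quartile factors, no low-count filter and without NET replicate 3. Psmg3 had 11.0, 8.27 and 9.89 CPM with NETs and 10.6, 12.6 and 10.7 CPM in control medium (-0.20 ± 0.112, adjusted p = 0.170). Psmg2 had 22.6, 19.99 and 20.7 CPM with NETs and 21.9, 25.2 and 20.4 CPM in control medium (adjusted p = 0.441). Psmg1 had 16.4, 19.4 and 19.3 CPM with NETs and 18.6, 18.6 and 19.9 CPM in control medium (adjusted p = 0.625). For Psmg2, Psmg3 and Psmg4 NET replicate 2 was the lowest library and control replicate 2 the highest. Psmg4 had the highest level per length of the 4, at 23.5 RPKM with NETs and 27.7 RPKM in control medium. It thus weighs most in the mean that follows. Per length the 4 genes averaged 13.3, 12.4 and 13.8 RPKM with NETs, against 14.2, 15.6 and 14.3 RPKM in control medium, without overlap, where the 14 core genes averaged 53.6, 55.3 and 55.3 RPKM with NETs and 51.9, 53.4 and 55.4 RPKM in control medium. Pomp, a core assembly chaperone outside the name pattern, averaged 69.3 ± 5.48 CPM with NETs and 70.4 ± 2.03 CPM in control medium (adjusted p = 0.817).

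The replicates of a group varied by a median coefficient of variation of 5.41% with NETs and 5.58% in control medium over the tested proteasome genes, which is of the size of many of the changes above. The median deviation from each gene's mean was 0.02, 0.10 and 0.04 on the log2 scale in NET replicates 1 to 3, against -0.10, -0.07 and 0.02 in control replicates 1 to 3. Control replicate 3 thus lay level with the lowest NET library, and NET replicate 2, the shallowest library, lay highest. Without control replicate 3 the count was 17 higher and 0 lower and the median log2 fold change 0.14. Of all tested genes 19.1% were then called higher and 17.3% lower. Without NET replicate 2 the count was 13 higher and 1 lower (Psmc6), with a median of 0.08, against 17.8% and 16.3% of all tested genes. There was no overlap between the groups at 16 genes that were higher with NETs, where 24.4% of all tested genes were, and at 2 that were lower, Psmc6 and Psmg4, where 24.5% of all tested genes were. Those 16 include Psma4, Psma5 and Psmc5, which did not pass the test, and leave out Psmb10, Psmd1 and Psmd7, which did.

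**Figure D4:**
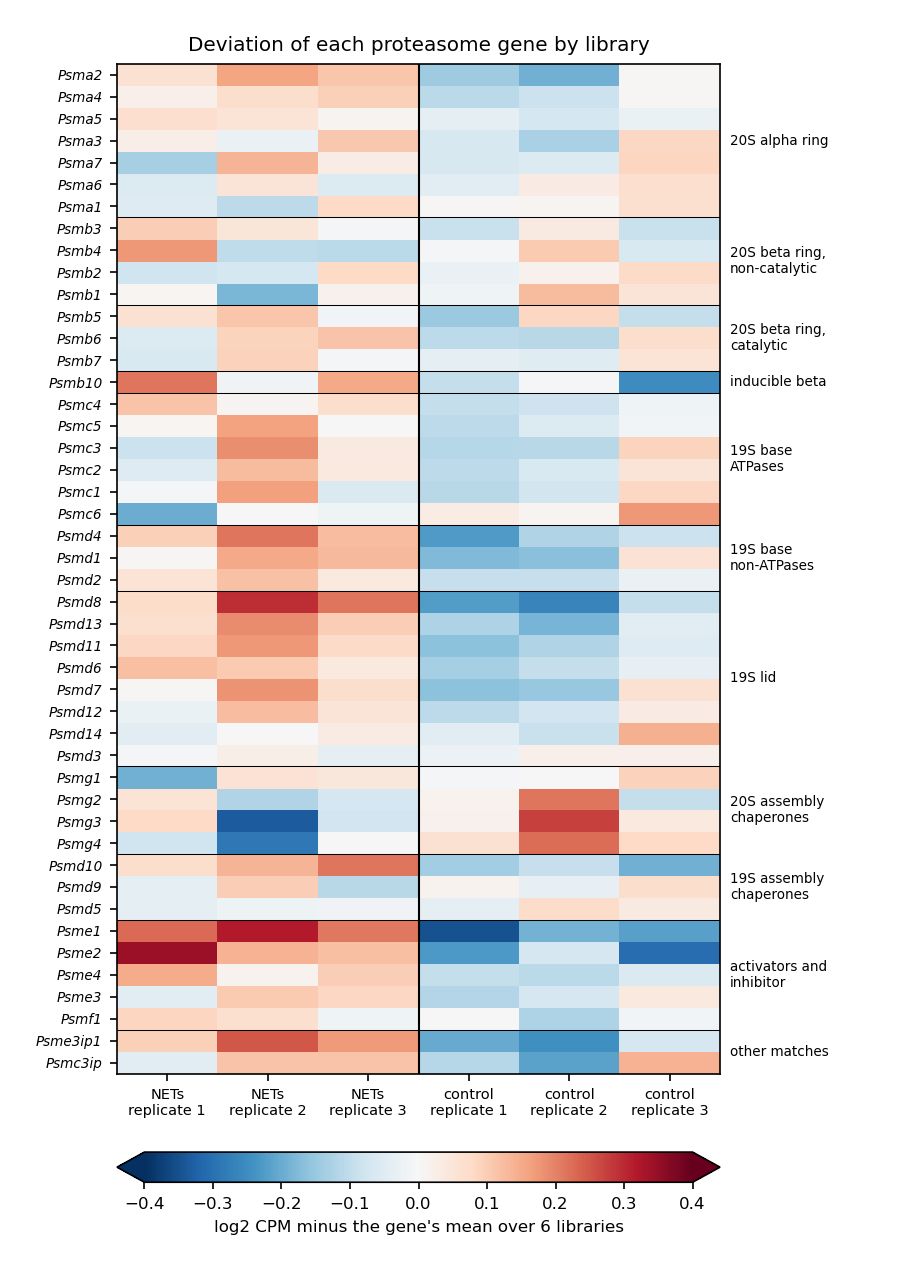
Log2 CPM of each tested proteasome gene except Psme2b minus its own mean over the 6 libraries. Columns are libraries, NETs at the left, and rows are genes grouped by role; most 19S non-ATPase genes and Psme1 and Psme2 are higher across the NET columns, and control replicate 3 stands above the other control libraries, with a median deviation of 0.02.

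Genes that work with the proteasome were taken from lists of 34 genes, of which 32 were tested. Paaf1 was not analysed here, and Ubqln2 had at most 2 counts in a library. Of those tested 9 rose and 7 fell, 28.1% higher, where 20.2% of all tested genes were called higher and 18.7% lower. The counts for the groups below are small and are to be read against these same shares. Among the regulators of proteasome gene transcription 0 of 6 rose and 4 fell. Nfe2l1, the NRF1 gene, had 675, 681 and 687 CPM with NETs and 702, 693 and 723 CPM in control medium, and did not pass (log2 fold change -0.05, adjusted p = 0.404). Nfe2l2, the NRF2 gene, averaged 120.0 ± 4.89 CPM with NETs and 132 ± 2.697 CPM in control medium and fell by 0.14 on the log2 scale (adjusted p = 0.0285), with the call lost in 4 of 16 alternatives. The genes of the small Maf proteins, which pair with NRF1 and NRF2, fell too. Mafk had 55.5, 62.1 and 59.3 CPM with NETs, against 82.5, 77.5 and 83.1 CPM in control medium, and fell by 0.46 (adjusted p = 5.28e-06). Mafg and Maff fell by 0.17 and 0.16 (adjusted p = 0.00844 and 0.0493), the second with its call lost in 9 of 16 alternatives. Exons of Mafk overlap Tmem184a on the other strand, and those of Mafg overlap Sirt7 on the same strand.

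The genes of enzymes that process NRF1 went apart. Ddi2, which encodes the protease that cleaves it, had 109.8, 107 and 108 CPM with NETs, against 77.4, 75.8 and 78.9 CPM in control medium, a rise of 1.40-fold (adjusted p = 3.82e-07). Ngly1, which encodes the enzyme that removes its sugar chains, had 9.79, 9.96 and 8.06 CPM with NETs, against 16.1, 15.2 and 13.7 CPM in control medium, and fell by 0.70 on the log2 scale (adjusted p = 3.53e-05). Neither gene overlapped between the groups. Exons of Ddi2 overlap those of Rsc1a1 on the same strand, over at least 1749 bases. Rsc1a1 had no count in any library, and the value of Ddi2 is uncertain for that reason. Ngly1 shares 21 exon bases with Oxsm on the other strand.

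Of 4 genes of ubiquitin and its activating enzymes 3 rose, and of 4 tested shuttle genes, Ddi2 among them, 3 rose. Uba1, the main ubiquitin-activating enzyme, had 496, 516 and 518 CPM with NETs, against 387, 394 and 414 CPM in control medium, a rise of 1.28-fold (adjusted p = 1.40e-05). Uba6, the other activating enzyme, rose 1.20-fold to 101 ± 5.35 CPM with NETs, against 84.2 ± 3.64 CPM in control medium (adjusted p = 0.000959). Of the ubiquitin genes Ubb rose 1.14-fold (adjusted p = 0.0212), with overlapping libraries and the call lost in 5 of 16 alternatives, and Rps27a did not pass (adjusted p = 0.495). Both have copies elsewhere in the genome, and their values are uncertain. The shuttle genes Ubqln4 and Ubqln1 rose 1.14-fold and 1.11-fold (adjusted p = 0.00344 and 0.0323), the second with its call lost in 7 of 16 alternatives, and Rad23b did not pass. Vcp, the unfoldase that hands substrates on, rose 1.19-fold to 329 ± 16.5 CPM with NETs, against 276 ± 5.24 CPM in control medium (adjusted p = 0.000590), while its cofactors Ufd1 and Nploc4 did not pass (adjusted p = 0.722 and 0.543).

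Of 9 proteasome-bound enzymes and adaptors 0 rose and 2 fell, where 18.7% of all tested genes fell. Ube3c, a ubiquitin ligase on the proteasome, fell by 0.16 on the log2 scale, at 177 ± 4.36 CPM with NETs against 198 ± 2.51 CPM in control medium (adjusted p = 0.0109). Zfand2a, a stress-induced adaptor, had 153, 157 and 148 CPM with NETs, against 178, 182 and 175 CPM in control medium, and fell by 0.22 (adjusted p = 0.000952). The deubiquitinase genes Usp14 and Uchl5 had log2 fold changes of 0.11 and 0.17 and did not pass (adjusted p = 0.0876 and 0.0624), with calls higher in 1 and 4 of 16 alternatives. Exons of Usp14 overlap those of Thoc1 on the other strand. Txnl1, a thioredoxin-like protein of the 19S particle, missed the threshold narrowly (log2 fold change 0.13, adjusted p = 0.0505) and was called higher in 7 of 16 alternatives. Adrm1, the ubiquitin receptor of the base that recruits the product of Uchl5, averaged 89.2 ± 5.12 CPM with NETs and 83.1 ± 4.19 CPM in control medium (adjusted p = 0.176).

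**Figure D5:**
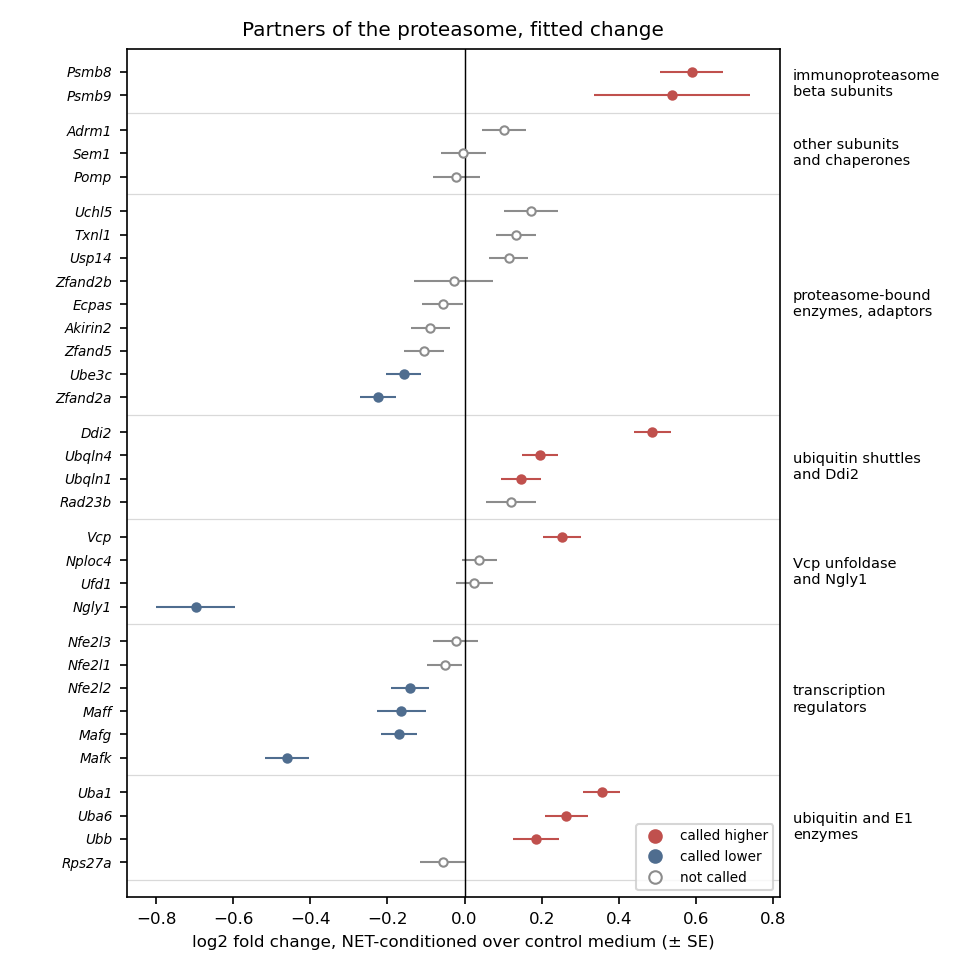
Log2 fold change of 32 genes that work with the proteasome, NET-conditioned over control medium, with its standard error (horizontal bar), grouped by role; filled points passed the test. The transcription regulators lie left of 0, at -0.46 for Mafk, and the activating enzymes Uba1 and Uba6 right of 0, at 0.36 and 0.26.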

How the data were processed

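Messenger RNA was sequenced in 3 libraries with NETs and 3 control libraries, assigned by their titles, with a stranded kit per the labels' protocols. The authors deposited 1 table of raw counts per gene symbol. STAR 2.7.10a, featureCounts of Subread 2.0.3 and mm10 are named per the submitters' processing notes. The sources used here do not give the strand setting or how reads with several matches were treated. Of 50626 symbols found in GENCODE M21 on mm10, 10.5% lay on an overlapping span, so promoters were matched by symbol. The table's coordinates were used only for the overlaps between exons of its own genes. Of the counts from 1 to 20, 74.8% to 78.4% were even, so mates were probably counted separately.

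The deposited counts were filtered by filterByExpr with a minimum count of 10, scaled by TMM and compared with edgeR 4.0.16 (robust glmQLFit and glmQLFTest, medium as the only term) in R 4.3.3. Adjustment was by Benjamini-Hochberg over all 13956 genes, called at 0.05, and standard errors came from the F statistic. The common biological coefficient of variation was 0.0620. RPKM values are TMM-scaled CPM over the table's exon length, given by the authors in bases. Pairs of libraries of a group had a chi-square of 9.66 to 25.2 per degree of freedom over genes, above sampling noise, so each was counted once. The procedure was tested on simulated data. Some genes of the partner lists are not reported here. The genes and lists were chosen with earlier results of these data known. By rule, values in every library were given for the 3 constitutive catalytic subunits, for the highest and lowest log2 fold change in each role and for the 5 genes with the lowest p-value on either side of 0. Genes near the threshold and called partners were named. Values of other genes were added after they were seen. Alternatives were other scalings, filters, DESeq2 1.42.0, limma-voom (limma 3.58.1), halved counts, a replicate block and leaving out each library.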

Additional observations from a re-analysis of the deposited data

How the results depend on the processing

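Of the 16 genes that rose, 9 kept their call in all 16 alternatives: Psma2, Psmd4, Psmd8, Psmd10, Psmd11, Psmd13, Psme1, Psme2 and Psme3ip1. Of 31 that did not pass, 6 were called in at least 1 alternative. The count of proteasome genes that rose was 9 with library size alone and 10 to 17 with a library left out. Of all tested genes 15.1% were called higher with library size alone and 16.0% to 19.1% with a library left out. The count of proteasome genes that fell, 0 as reported, was 3 with library size alone (Psmb1, Psmc6 and Psmg4), 2 with upper-quartile factors, 2 with no low-count filter, 1 with the replicate block (Psmc6) and 0 to 1 with a library left out. In the same order 27.0%, 21.4%, 10.9%, 19.4% and 14.4% to 17.3% of all tested genes were called lower. The median log2 fold change was 0.0279 with library size alone and 0.0689 to 0.136 with a library left out. Library size alone moved the median of all genes to -0.07, and why the settings differ was not tested. With the replicate block 18 proteasome genes rose, where 21.3% of all tested genes were called higher. Deviations of same-numbered libraries correlated at 0.12, -0.06 and 0.06 in numbers 1 to 3, and NET replicate 2 correlated best with control replicate 3, so the numbers were not taken to pair the samples. The 3 ratios of inducible to constitutive subunits kept their direction on leaving out each library, with differences of 0.45 to 0.51 for Psmb8 to Psmb5, 0.29 to 0.63 for Psmb9 to Psmb6 and 0.12 to 0.32 for Psmb10 to Psmb7. Counts without division by length and the replicate block cannot change these differences. Leaving out Psmc3ip and Psme3ip1, an alternative chosen after seeing the data, changed the count to 15. Many of the changes lie near the spread between 3 libraries, though the 9 genes named first kept their call throughout. Counts of Psme2b and Psmb9 are low.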
